A study of Mus musculus with 17 samples.

Results

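Laminin and type IV collagen are the polymers on which a basement membrane is built, and the 10 genes described here encode their chains and close partners. The type IV collagen genes are *Col4a1* and *Col4a2*, the laminin genes are *Lama1*, *Lamb1* and *Lamc1*, the nidogen genes are *Nid1* and *Nid2*, the heparan sulfate proteoglycan genes are *Hspg2* (perlecan) and *Agrn* (agrin), and *Sparc* encodes a collagen-binding glycoprotein. These genes were picked by name out of 54532 genes in the deposited table, with their expression values in these same libraries already known, so their levels are given as a description and without a test. All 10 passed the filter on low values, TPM of at least 1 in at least 2 libraries, which left 21871 genes.

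The libraries were made from R1/E mouse embryonic stem cells, wild-type (WT) or *Usb1* knockout (KO), before retinoic acid (RA) was added (day 0) and after 1 and 3 days of RA, a treatment that starts differentiation. Wild-type day 0 had 2 libraries and the other 5 groups had 3 each, 17 in all. USB1 is an enzyme that trims and modifies the 3′ end of U6 snRNA. The knockout cells were a single CRISPR/Cas9 line, KO-1, whose edited transcript is predicted to encode a short truncated protein, so a difference between clones and an effect of the knockout cannot be told apart.

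A basement membrane is a thin sheet of extracellular matrix beneath epithelia. Laminin, a trimer of an alpha, a beta and a gamma chain, assembles on the cell surface, and type IV collagen, a triple helix of COL4A1 and COL4A2 chains, forms the cross-linked network that gives the sheet strength. Nidogens and perlecan bridge the networks, agrin links laminin to the cell, and SPARC binds collagen as it is secreted. In the early mouse embryo, primitive endoderm and its parietal derivative lay down large amounts of the laminin trimer encoded by *Lama1*, *Lamb1* and *Lamc1* and type IV collagen, and RA is a classical inducer of these cells in culture.

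*Col4a1* (ENSMUSG00000031502, chr8:11198423-11312826, minus strand) and *Col4a2* (ENSMUSG00000031503, chr8:11312805-11449287, plus strand) lie head to head in GRCm38, and their start sites are so close that the transcripts share 22 bases. The promoter windows of RefSeq (GRCm38.p6), 250 bases before to 50 bases after a start, are printed because these genes had the largest fold changes of the 10 under RA. Both sequences read 5′ to 3′ on the strand of their own gene, and capitals mark the 78 bases (chr8:11312777-11312854) that lie in both windows, on opposite strands.
Col4a1: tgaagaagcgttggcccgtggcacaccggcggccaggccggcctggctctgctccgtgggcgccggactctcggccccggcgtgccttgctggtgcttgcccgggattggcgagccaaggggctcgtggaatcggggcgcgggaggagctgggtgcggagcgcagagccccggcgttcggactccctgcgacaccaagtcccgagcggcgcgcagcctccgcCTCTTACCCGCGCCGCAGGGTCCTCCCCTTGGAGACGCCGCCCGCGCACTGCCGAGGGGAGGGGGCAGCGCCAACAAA
Col4a2: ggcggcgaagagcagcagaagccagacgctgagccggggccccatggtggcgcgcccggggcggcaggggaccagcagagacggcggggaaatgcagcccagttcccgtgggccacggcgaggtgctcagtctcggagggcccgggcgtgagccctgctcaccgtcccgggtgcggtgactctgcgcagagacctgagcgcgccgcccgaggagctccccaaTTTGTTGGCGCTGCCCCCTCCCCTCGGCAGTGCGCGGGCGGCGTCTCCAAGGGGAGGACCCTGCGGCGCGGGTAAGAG
The *Col4a1* window is chr8:11312777-11313076 and the *Col4a2* window is chr8:11312555-11312854. A search of both strands found the letters CCAAT (the NF-Y box) once in each window, at position −145 from the *Col4a1* start and −32 from the *Col4a2* start. The GC box GGGCGG was found once in the *Col4a1* window and 3 times in the *Col4a2* window, and 1 of these copies, in the shared stretch, is the same site.

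**Figure D1:**
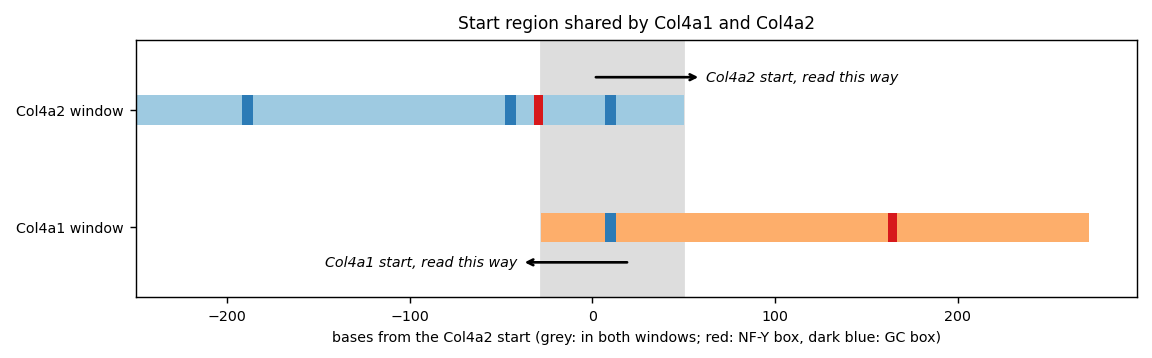
Promoter windows of *Col4a1* and *Col4a2*, drawn as bars along the distance in bases from the *Col4a2* start. Arrows show the direction of transcription, the grey band is the 78 bases in both windows, and coloured blocks are matches to the NF-Y box (red) and the GC box (dark blue). Each window holds 1 NF-Y box, and the bars overlap around both start sites.

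RefSeq windows were found for 7 of the 10 genes, with a second window for *Agrn*, and not for *Lama1*, *Lamc1* and *Nid2*. The windows of *Lamb1* (chr12:31265043-31265342, plus strand) and *Nid1* (chr13:13437352-13437651, plus strand) are printed as a contrast, since these genes had the most unlike RA responses among those with a window outside the type IV collagen pair. Capitals mark CCAAT and GGGCGG on either strand.
Lamb1: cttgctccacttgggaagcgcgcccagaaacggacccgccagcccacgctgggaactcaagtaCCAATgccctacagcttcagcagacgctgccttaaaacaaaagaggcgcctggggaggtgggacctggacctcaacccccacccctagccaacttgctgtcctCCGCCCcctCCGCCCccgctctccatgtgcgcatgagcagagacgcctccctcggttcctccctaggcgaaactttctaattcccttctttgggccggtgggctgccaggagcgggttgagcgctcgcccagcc
Nid1: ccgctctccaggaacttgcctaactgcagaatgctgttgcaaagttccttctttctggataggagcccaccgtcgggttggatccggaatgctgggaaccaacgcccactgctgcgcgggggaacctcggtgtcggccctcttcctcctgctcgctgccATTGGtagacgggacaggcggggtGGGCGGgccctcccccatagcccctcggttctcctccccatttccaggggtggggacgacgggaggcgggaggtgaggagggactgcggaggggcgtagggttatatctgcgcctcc
CCAAT was present in the windows of *Col4a1*, *Col4a2*, *Lamb1* and *Nid1*, and in 37.4% of all 32851 windows. GGGCGG was present in every window of the group except that of *Sparc*, up to 12 copies in a window of *Agrn*, and in 35.7% of all windows. The GATA motif (spelled AGATAA, or else AGATAG, or else TGATAA, or else TGATAG, in 29.8% of all windows), the nuclear receptor motif AGGTCA (16.3%) and TATAAA (13.6%) were not found in these windows, and no matches of different motifs overlapped. Windows of the group were 55.3% to 83.3% GC, against a median of 52.7% for all windows. The 2 contrasting genes therefore held the same motifs, and a match here describes letters, not a bound site.

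*Usb1* was measured in every library as a check of the labels. Wild-type libraries had 40.0 and 37.1 TPM at day 0, 56.9, 48.6 and 51.9 TPM at day 1, and 33.7, 32.0 and 35.8 TPM at day 3. Knockout libraries had 15.5, 15.2 and 17.9 TPM at day 0, 20.7, 21.4 and 18.5 TPM at day 1, and 14.7, 17.2 and 20.4 TPM at day 3. Each knockout library was below each wild-type library, though transcript from the edited gene remained. Depth was even, with 15404379 to 17300186 reads on genes per library, recovered from TPM. Wild-type day 0 replicate 1 had only 239 genes with 1 read and knockout day 3 replicate 1 had 1224, against 1352 to 2467 in the other libraries. This bears little on the 10 genes, whose lowest value rests on 384 reads (*Col4a2*).

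The embryonic stem cell markers *Pou5f1*, *Nanog*, *Sox2*, *Esrrb*, *Zfp42* and *Klf4* were all at 1 TPM or more in each group. Their summed level was 5063.5 to 5151.7 TPM in wild-type day 0 libraries and 312 to 353 TPM at day 3. In knockout libraries it was 4927.2 to 5394.1 TPM at day 0 and 510 to 578 TPM at day 3. At day 1 it was 2835.6 to 2922.1 TPM in wild-type and 3586.8 to 3677.5 TPM in knockout libraries.

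At day 3 of RA most of the 10 genes were among the most abundant transcripts of wild-type cells. By mean TPM, *Nid1* ranked only at place 1227 of 22046 protein-coding genes, and *Lamc1* had ranked at place 117 already at day 0. The 10 genes together took 0.262% ± 0.00731 (SD, n = 2) of all TPM in wild-type cells at day 0, 0.218% ± 0.0288 (SD, n = 3) at day 1 and 1.22% ± 0.118 (SD, n = 3) at day 3. In knockout cells their share was 0.208% ± 0.0211 (SD, n = 3) at day 0, 0.152% ± 0.0204 (SD, n = 3) at day 1 and 0.688% ± 0.0943 (SD, n = 3) at day 3. The share was thus lower at day 1 than at day 0 in both genotypes, was high only at day 3, and at each day the ranges of wild-type and knockout libraries did not overlap. TPM is corrected for gene length, so that levels of different genes can be compared. In these bulk samples, fewer cells of a type and less RNA per cell cannot be told apart.

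In wild-type cells, 8 of the 10 genes were at least 2-fold higher at day 3 than at day 0 with no overlap of the libraries, beside 16.3% of all genes tested. In knockout cells 8 of the 10 were as well, beside 13.8% of all genes (6 to 9 of the 10 with other scalings of the libraries). The genes had been selected on these same values, so nothing is read from the counts. *Lama1*, *Lamb1*, *Lamc1*, *Col4a1*, *Col4a2*, *Nid2*, *Agrn* and *Sparc* made up the 8 genes in each genotype. The median log2 fold change of the 10 genes was 2.09 in wild-type and 1.62 in knockout cells, against 0.10 and 0.03 for all genes tested.

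**Figure D2:**
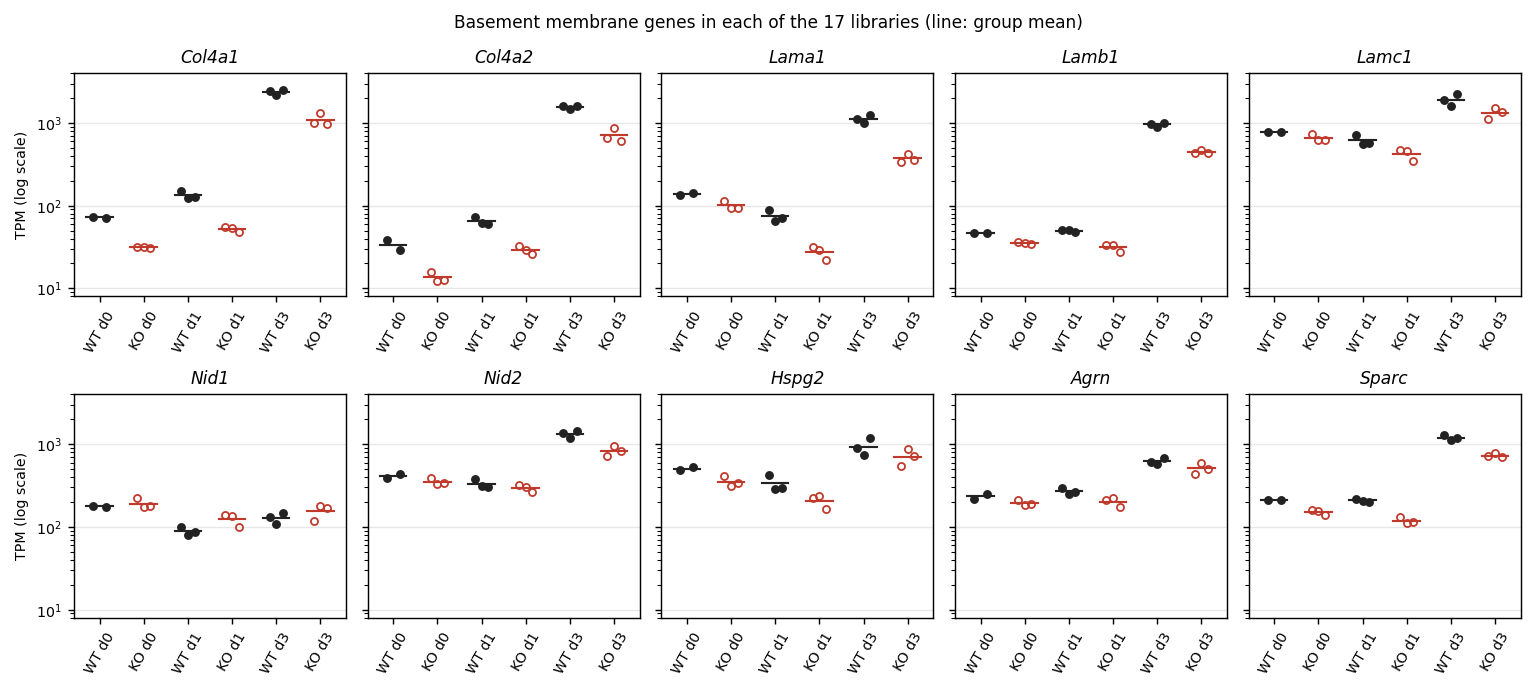
TPM of each of the 10 genes (log scale) in the 17 libraries, 1 panel per gene, with wild-type (WT) as filled black and *Usb1* knockout (KO) as open red circles at day 0, 1 and 3, and group means as lines. At day 3 wild-type libraries lie above knockout libraries for 7 genes, and the 2 genotypes overlap for *Nid1*, *Hspg2* and *Agrn*.

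The type IV collagen chains had the largest response. *Col4a1* was at 72.7 and 71.1 TPM in wild-type day 0 libraries, 150.0, 123.0 and 126.0 TPM at day 1, and 2411.3, 2205.7 and 2506.2 TPM at day 3. In knockout libraries *Col4a1* was at 31.7, 31.9 and 30.4 TPM at day 0, 55.5, 53.6 and 48.4 TPM at day 1, and 992.0, 1301.7 and 962.0 TPM at day 3. The 6 groups did not overlap, and each knockout library was below each wild-type library of its day. *Col4a1* at day 3 was 33.0-fold above day 0 in wild-type cells (log2 fold change 5.02 ± 0.12, SE) and 34.6-fold in knockout cells (5.06 ± 0.10). By mean TPM it ranked at place 2542 of 22046 protein-coding genes in wild-type cells at day 0 and at place 18 at day 3. In knockout cells at day 3 it ranked at place 72.

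*Col4a2*, which encodes the partner chain, was at 38.3 and 29.2 TPM in wild-type day 0 libraries, 72.5, 61.5 and 60.4 TPM at day 1, and 1604.1, 1468.3 and 1623.3 TPM at day 3. Its knockout libraries held 15.9, 12.2 and 12.6 TPM at day 0, 32.7, 29.3 and 25.8 TPM at day 1, and 661.0, 865.0 and 613.0 TPM at day 3. The order of the groups was that of *Col4a1*, with an overlap only between wild-type day 0 and knockout day 1. The fold over day 0 at day 3 was 46.4 in wild-type cells (log2 5.50 ± 0.16) and 52.5 in knockout cells (5.61 ± 0.14).

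Knockout cells held less of both chains at every day, by a like factor. The ratio of knockout to wild-type mean TPM for *Col4a1* was 0.436 at day 0, 0.395 at day 1 and 0.457 at day 3 (log2 −1.17 ± 0.12, −1.32 ± 0.10 and −1.14 ± 0.10). For *Col4a2* it was 0.402, 0.452 and 0.455 (log2 −1.25 ± 0.16, −1.12 ± 0.14 and −1.15 ± 0.14). The difference between the genotypes in the response from day 0 to day 3 was 0.03 ± 0.16 for *Col4a1* and 0.10 ± 0.21 for *Col4a2*, and with quantile normalization it was −0.10 and −0.14. The lower level was thus present before RA, and the responses of the 2 genotypes differed by less than 1 SE.

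The proportion of the chains also shifted. *Col4a1* over *Col4a2* was 2.17 ± 0.376 (SD, n = 2) in wild-type and 2.34 ± 0.311 (SD, n = 3) in knockout cells at day 0. At day 3 it was 1.52 ± 0.0238 (SD, n = 3) and 1.52 ± 0.0375 (SD, n = 3). In each genotype the ratio in every day 3 library was below that in every day 0 library.

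Among the laminin chains, *Lama1* (ENSMUSG00000032796, chr17:67697259-67822647, plus strand) encodes the alpha chain typical of the early embryo. Wild-type libraries had 134.0 and 144.0 TPM of *Lama1* at day 0, 89.0, 65.7 and 71.3 TPM at day 1, and 1114.2, 985.0 and 1264.6 TPM at day 3. Knockout libraries had 115.0, 94.4 and 93.0 TPM at day 0, 31.5, 29.3 and 22.1 TPM at day 1, and 339.0, 423.0 and 353.0 TPM at day 3. The level was lowest at day 1 in both genotypes, and no neighbouring groups overlapped. Day 1 was at 0.542 of day 0 in wild-type cells (log2 −0.88 ± 0.16) and at 0.274 in knockout cells (−1.84 ± 0.14), where *Lama1* was the only gene of the 10 at least 2-fold lower without overlap. At day 3 the fold over day 0 was 8.07 in wild-type cells (3.00 ± 0.16) and 3.69 in knockout cells (1.87 ± 0.14).

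Unlike the collagen chains, *Lama1* differed more between genotypes once RA was added. The ratio of knockout to wild-type was 0.726 at day 0, 0.367 at day 1 and 0.331 at day 3 (log2 −0.46 ± 0.16, −1.42 ± 0.14 and −1.59 ± 0.14). The knockout response minus the wild-type response was −0.95 ± 0.22 at day 1 and −1.13 ± 0.22 at day 3, the lowest values of the 10 genes. These differences are descriptions, since the gene was chosen with them known.

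*Lamb1* (ENSMUSG00000002900, chr12:31265234-31329644, plus strand), the beta chain of the same trimer, was at 47.2 and 46.6 TPM in wild-type day 0 libraries, 50.2, 50.3 and 48.1 TPM at day 1, and 970.0, 904.0 and 1004.5 TPM at day 3. Knockout libraries had 36.0, 34.9 and 34.6 TPM at day 0, 33.6, 33.8 and 27.6 TPM at day 1, and 428.0, 470.0 and 434.0 TPM at day 3. *Lamb1* was nearly flat from day 0 to day 1, with a log2 fold change of 0.08 ± 0.08 in wild-type cells (−0.13 with an equal median of the libraries) and −0.15 ± 0.07 in knockout cells. At day 3 it was 20.4-fold above day 0 in wild-type (4.32 ± 0.08) and 12.6-fold in knockout cells (3.62 ± 0.07). The ratio of knockout to wild-type was 0.749, 0.639 and 0.463 at day 0, 1 and 3.

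*Lamc1* (ENSMUSG00000026478, chr1:153218922-153332786, minus strand), the gamma chain shared by most laminins, was already abundant at day 0, with 785.0 and 780.0 TPM in WT and 731.0, 614.0 and 619.0 TPM in knockout libraries. At day 3 *Lamc1* reached 1875.2, 1616.1 and 2241.0 TPM in WT and 1123.0, 1508.7 and 1338.8 TPM in knockout libraries. Its response was thus small, 2.44-fold in wild-type (log2 1.27 ± 0.17) and 2.02-fold in knockout cells (1.01 ± 0.15), and the genotypes did not overlap at any day.

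Because the chains moved by unlike amounts, their proportions changed. *Lama1* over *Lamc1* was 0.178 ± 0.00983 (SD, n = 2) in wild-type cells at day 0 and 0.589 ± 0.023 (SD, n = 3) at day 3. In knockout cells it was 0.154 ± 0.00351 (SD, n = 3) and 0.282 ± 0.0192 (SD, n = 3). *Lamb1* over *Lamc1* was 0.06 ± 0.000256 (SD, n = 2) in wild-type cells at day 0 and 0.508 ± 0.056 (SD, n = 3) at day 3, and 0.054 ± 0.00413 (SD, n = 3) and 0.339 ± 0.0369 (SD, n = 3) in knockout cells. *Lamc1* therefore exceeded both partner chains in every group, least at day 3 in wild-type cells.

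*Lama5* and *Lamb2* encode another alpha and another beta chain of laminin. *Lama1* made up 43.1% ± 3.36 (SD, n = 2) of the sum of *Lama1* and *Lama5* TPM in wild-type cells at day 0, 39.1% ± 0.705 (SD, n = 3) at day 1 and 60.9% ± 2.11 (SD, n = 3) at day 3. In knockout cells its share was 38.6% ± 1.41 (SD, n = 3), 21.5% ± 1.48 (SD, n = 3) and 36.5% ± 2.2 (SD, n = 3). *Lama1* was thus the larger of the pair only in wild-type cells at day 3. *Lamb1* made up 76.3% ± 0.678 (SD, n = 3) of *Lamb1* and *Lamb2* in wild-type and 63.4% ± 1.39 (SD, n = 3) in knockout cells at day 3, from 44.7% ± 1.37 (SD, n = 2) and 43.7% ± 0.735 (SD, n = 3) at day 0. *Lama5* itself was at 726 TPM in WT and 653 TPM in knockout cells at day 3, a log2 difference of −0.15 ± 0.17 (limma adjusted p = 0.744).

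**Figure D3:**
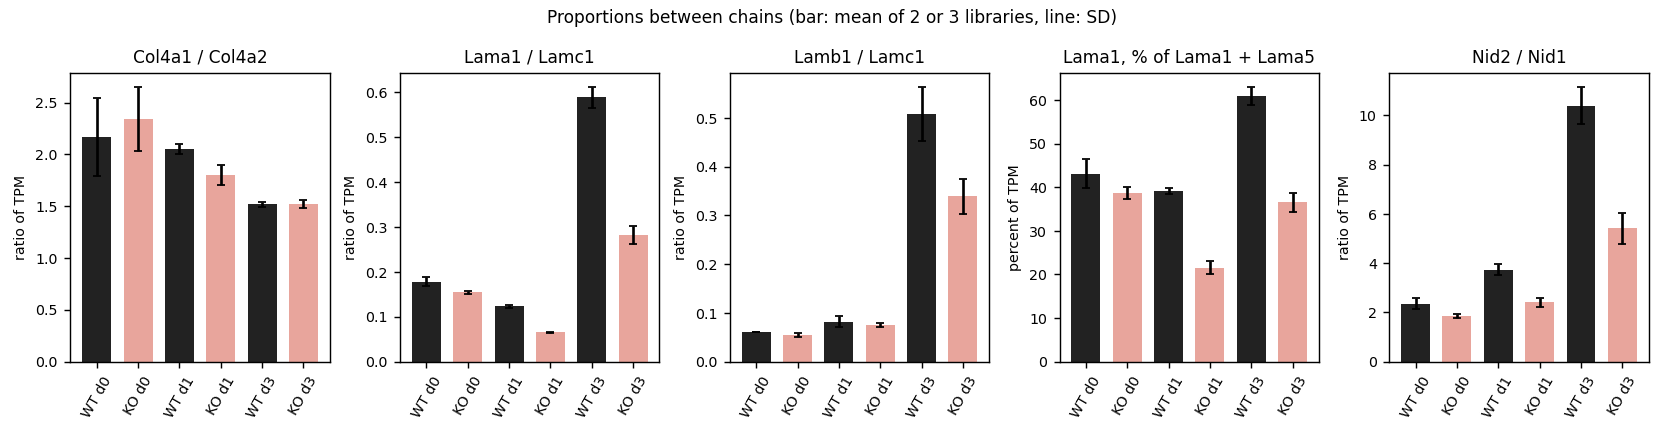
Ratios of TPM between chains, and *Lama1* as a percent of *Lama1* and *Lama5*, in the 6 groups, with wild-type (WT) as black and *Usb1* knockout (KO) as pink bars from 0. Bars are means of 2 libraries (WT day 0) or 3 libraries, and lines are SD. *Col4a1* over *Col4a2* meets at 1.52 in both genotypes at day 3, whereas the *Lama1* share stands at 60.9% in WT and 36.5% in KO.

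The nidogens, which bind laminin to type IV collagen, went apart. *Nid2* (ENSMUSG00000021806, chr14:19751265-19811787, plus strand) was at 395.0 and 438.0 TPM in wild-type day 0 libraries and reached 1371.9, 1199.9 and 1430.4 TPM at day 3. Knockout libraries had 391.0, 327.0 and 344.0 TPM at day 0 and 723.0, 945.0 and 824.0 TPM at day 3. The fold over day 0 was 3.20 in wild-type (log2 1.68 ± 0.13) and 2.35 in knockout cells (1.22 ± 0.11), and the genotypes did not overlap at day 3 (ratio 0.623). At day 1 the genotypes overlapped, and the knockout difference of −0.15 ± 0.11 was 0.09 with an equal median. Of the exon bases of *Nid2*, 8.45% are shared with *Rtraf* on the other strand.

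*Nid1* (ENSMUSG00000005397, chr13:13437551-13512269, plus strand) was the only gene of the group without a higher level at day 3 than at day 0. Wild-type day 0 libraries had 181.0 and 175.0 TPM, 99.8, 80.5 and 87.2 TPM at day 1, and 130.0, 108.0 and 149.0 TPM at day 3. Its knockout libraries held 222.0, 173.0 and 179.0 TPM at day 0, 141.0, 134.0 and 101.0 TPM at day 1, and 119.0, 177.0 and 170.0 TPM at day 3. The genotypes overlapped at day 0 and day 3, and at day 1 the knockout libraries were above the wild-type libraries (ratio 1.40, log2 0.48 ± 0.17). *Nid2* over *Nid1* was 10.4 ± 0.761 (SD, n = 3) in wild-type and 5.41 ± 0.613 (SD, n = 3) in knockout cells at day 3, against 2.35 ± 0.226 (SD, n = 2) and 1.86 ± 0.0879 (SD, n = 3) at day 0.

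Of the heparan sulfate proteoglycans, *Hspg2* (ENSMUSG00000028763, chr4:137468769-137570630, plus strand) had mean levels of 507, 337 and 937 TPM at day 0, 1 and 3 in wild-type cells and 354, 208 and 709 TPM in knockout cells. Its day 3 libraries ranged from 738.0 to 1177.2 TPM in WT and from 546.0 to 867.0 TPM in knockout cells and overlapped. *Agrn* (ENSMUSG00000041936, chr4:156165290-156197488, minus strand) had means of 235, 270 and 624 TPM in WT and 196, 203 and 512 TPM in knockout cells, again with an overlap at day 3 (570.0 to 687.0 against 439.0 to 592.0 TPM). These 2 genes had the smallest differences between genotypes at day 3 after *Nid1*, with log2 values of −0.40 ± 0.21 for *Hspg2* and −0.29 ± 0.12 for *Agrn*. The day 1 change of *Agrn*, 0.20 ± 0.13 in wild-type and 0.04 ± 0.12 in knockout cells, took the other sign with an equal median (−0.01 and −0.05).

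*Sparc* (ENSMUSG00000018593, chr11:55394500-55423183, minus strand) was at 214.0 and 211.0 TPM in wild-type day 0 libraries and reached 1295.6, 1130.9 and 1189.5 TPM at day 3. Knockout libraries had 160.0, 155.0 and 140.0 TPM at day 0 and 724.0, 773.0 and 695.0 TPM at day 3. The genotypes did not overlap at any day, and the ratio of knockout to wild-type was 0.714 at day 0, 0.570 at day 1 and 0.606 at day 3. The fold over day 0 at day 3 was 5.67 in wild-type (log2 2.50 ± 0.08) and 4.82 in knockout cells (2.26 ± 0.07).

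At day 1 of RA the group was slightly below day 0 on the whole. In wild-type cells, *Col4a1*, *Col4a2* and, by a small margin that turns with an equal median, *Lamb1* were higher without overlap (3 of 10, beside 34.7% of all genes) and 5 were lower (beside 18.5%). In knockout cells 2 were higher, *Col4a1* and *Col4a2* (beside 25.2% of all genes), and 7 were lower (beside 19.7%). The median log2 fold change was −0.17 in wild-type and −0.29 in knockout cells, against 0.17 and 0.02 for all genes. On the deposited scale most genes of wild-type cells were thus higher at day 1, and with an equal median of the libraries the group's value was −0.38.

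Knockout libraries lay below wild-type libraries for most of the group at each day. Lower levels without overlap were found for 9 of 10 genes at day 0 (beside 21.3% of all genes), 8 at day 1 (beside 30.4%) and 7 at day 3 (beside 11.0%). Differences of at least 2-fold were fewer, with 2 genes at day 0 (beside 2.14%), 3 at day 1 (beside 2.47%) and 4 at day 3 (beside 1.01%). *Col4a1* and *Col4a2* were in each of these counts, *Lama1* was added at day 1, and *Lamb1* at day 3. The day 1 count was 2 with quantile normalization, an equal median of the libraries or adjustment for exon length. The median log2 difference of the 10 genes was −0.44, −0.66 and −0.70 at day 0, 1 and 3, against 0.00, −0.13 and 0.00 for all genes. Long genes with at least 10 TPM in a group of libraries were lower too at day 0 and day 1, by a smaller amount. These 5809 genes had a group mean of at least 10 TPM and exon lengths in the range of the 10 genes, 3788 to 14307 bases. Their medians were −0.10, −0.19 and 0.01, and adjustment for exon length changed the day 1 median of the 10 genes to −0.39. The part of transcript length in the difference was not tested further.

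**Figure D4:**
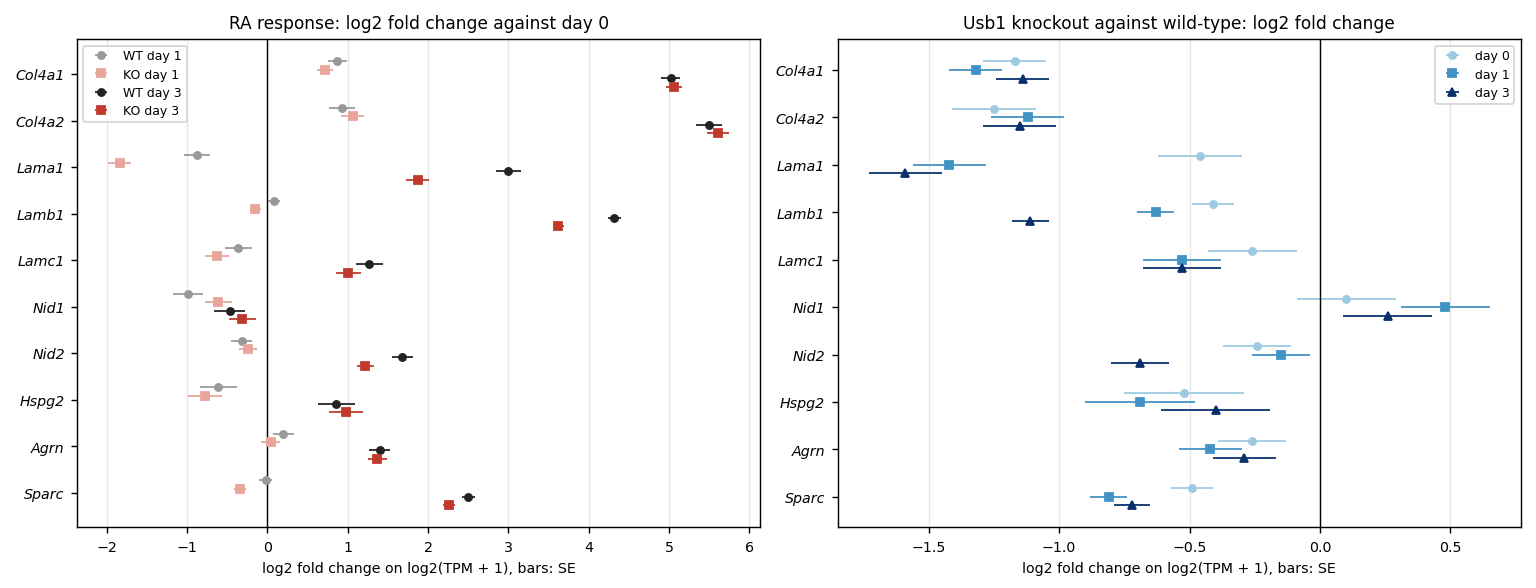
Log2 fold changes on log2(TPM + 1) with limma's SE as bars for the 10 genes, for RA day 1 and day 3 against day 0 in wild-type (WT) and knockout (KO) cells (left) and for knockout against wild-type at each day (right). *Col4a1* and *Col4a2* stay between −1.12 and −1.32 at all days, whereas *Lama1* goes from −0.46 to −1.59 and *Lamb1* from −0.41 to −1.11.

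Within a group, replicates moved together over the 10 genes. All 10 genes were above the group mean in replicate 1 of knockout day 0, wild-type day 1 and knockout day 1 and in replicate 2 of knockout day 3. None was above it in knockout day 0 replicate 3, wild-type day 1 replicate 3, knockout day 1 replicate 3, wild-type day 3 replicate 2 and knockout day 3 replicate 1. The median deviation was between −0.21 and 0.20 on the log2 scale, and that of genes of like length was between −0.12 and 0.07. The 10 genes are thus not independent of each other as measurements of a library.

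The machinery that surrounds these chains was followed in 62 further genes, of which 57 were tested. These lists and the marker lists were also chosen with earlier results of these data known. Their counts and p-values are therefore a description, and nothing is read from the counts beside the shares of all genes. Each share of genes called by limma counts both directions. *Lamc3*, *Col4a3*, *Col4a4*, *Col15a1* and *Itga2* did not pass the filter on low values. With limma (adjusted p under 0.05 and at least 2-fold), 39 of the 57 rose and 0 fell at day 3 in wild-type cells, with 25.8% of all genes tested called. In knockout cells 40 rose and 0 fell, with 21.9% of all genes called. At day 1, 18 rose and 1 fell in wild-type cells (13.9% of all genes called), and 10 rose and 0 fell in knockout cells (6.95%). The median log2 fold change at day 3 was 1.46 in wild-type and 1.79 in knockout cells.

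Other laminin chains rose in 5 of 7 cases in wild-type cells at day 3, and 6 of 7 in knockout cells. In wild-type cells *Lamb3* rose by 2.66 ± 0.17 (adjusted p = 5.27e-09), *Lamb2* by 2.34 ± 0.12 (adjusted p = 5.05e-10) and *Lama5* by 1.96 ± 0.19 (adjusted p = 6.52e-07) on the log2 scale. Of the other type IV collagen chains, *Col4a5* rose to 14.1 TPM in WT and 11.9 TPM in knockout cells at day 3, and *Col4a6*, listed at 0 in all day 0 libraries, was at 1.44 and 2.49 TPM. These chains stayed far below *Col4a1* and *Col4a2*.

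Of the 17 genes for the modification and secretion of collagen, 12 rose in wild-type and 10 in knockout cells at day 3. *Serpinh1*, the collagen chaperone HSP47, rose from 61.8 to 2117.9 TPM in wild-type cells (log2 5.07 ± 0.11, adjusted p = 9.12e-14) and from 68.6 to 1543.6 TPM in knockout cells (4.48 ± 0.10, adjusted p = 8.17e-14). *P4ha3*, a prolyl 4-hydroxylase subunit, rose by 5.39 ± 0.19 in wild-type cells (adjusted p = 1.03e-11), and *Pxdn*, the peroxidase that cross-links type IV collagen, by 3.81 ± 0.14 (adjusted p = 2.11e-11). *Serpinh1* and *P4ha3* had also risen at day 1, by 2.65 ± 0.11 (adjusted p = 4.21e-10) and 2.40 ± 0.19 (adjusted p = 2.32e-07) in wild-type cells. At that day *Col4a1* and *Col4a2* were also above their day 0 level (0.87 ± 0.12 and 0.93 ± 0.16), and *Lama1* and *Lamc1* were below theirs.

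Among other basement membrane components 9 of 12 rose in wild-type and 10 of 12 in knockout cells at day 3, led in wild-type cells by *Tinagl1* (6.67 ± 0.21, adjusted p = 4.12e-12), *Npnt* (5.19 ± 0.19, adjusted p = 1.77e-11) and *Smoc2* (4.48 ± 0.18, adjusted p = 4.74e-11). *Npnt* encodes nephronectin, an integrin ligand of basement membranes. Receptors rose in 5 of 9 cases in each genotype, among them the collagen receptor *Ddr1* (2.34 ± 0.13, adjusted p = 1.66e-09) and *Itga3* (1.57 ± 0.11, adjusted p = 2.07e-08), an integrin alpha chain for laminin. Proteases and inhibitors rose in 6 of 10 cases in wild-type and 7 of 10 in knockout cells, among them the plasminogen activator gene *Plat* (6.70 ± 0.11, adjusted p = 5.62e-15) and the inhibitor gene *Timp3* (4.34 ± 0.24, adjusted p = 1.16e-09) in wild-type cells.

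Few of these 57 genes differed between genotypes by 2-fold. At day 0, 0 were called by limma (3.05% of all genes called), with 22 at an unadjusted p under 0.05, and 5 were called by voom on recovered reads. At day 1, 5 fell in knockout cells (2.22% of all genes called). They were *P4ha3* (−1.61 ± 0.17, adjusted p = 2.1e-05), the lysyl oxidase gene *Loxl2* (−1.32 ± 0.17, adjusted p = 0.000118), *Pxdn* (−1.05 ± 0.13, adjusted p = 8.39e-05), the inhibitor gene *Timp2* (−1.29 ± 0.10, adjusted p = 2.04e-06) and *Plat* (−1.01 ± 0.10, adjusted p = 1.16e-05). At day 3, *Plod2*, a lysyl hydroxylase gene, was at 204 TPM in WT and 98.9 TPM in knockout cells and fell (−1.04 ± 0.08, adjusted p = 4.28e-06), and *Mmp9*, a gelatinase gene, rose (1.34 ± 0.27, adjusted p = 0.00742), with 1.29% of all genes called. The calls of *Pxdn* (−0.82) and *Plat* (−0.82) at day 1 were lost with an equal median, that of *Mmp9* with a pseudocount of 0.1 (1.69), and that of *Plod2* without knockout day 3 replicate 1 (−0.96). The median difference over the 57 genes at day 3 was −0.21.

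The test of the difference in response called 3 of the 57 genes at day 1 (0.86% of all genes called), among them *Plat* and *Timp2*, and 1 at day 3 (2.42% of all genes called), *Tinagl1*. At an unadjusted p under 0.05 there were 18 and 20. *Serpinh1* missed the 2-fold limit at day 3, with a difference of −0.60 ± 0.15 (adjusted p = 0.0297).

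**Figure D5:**
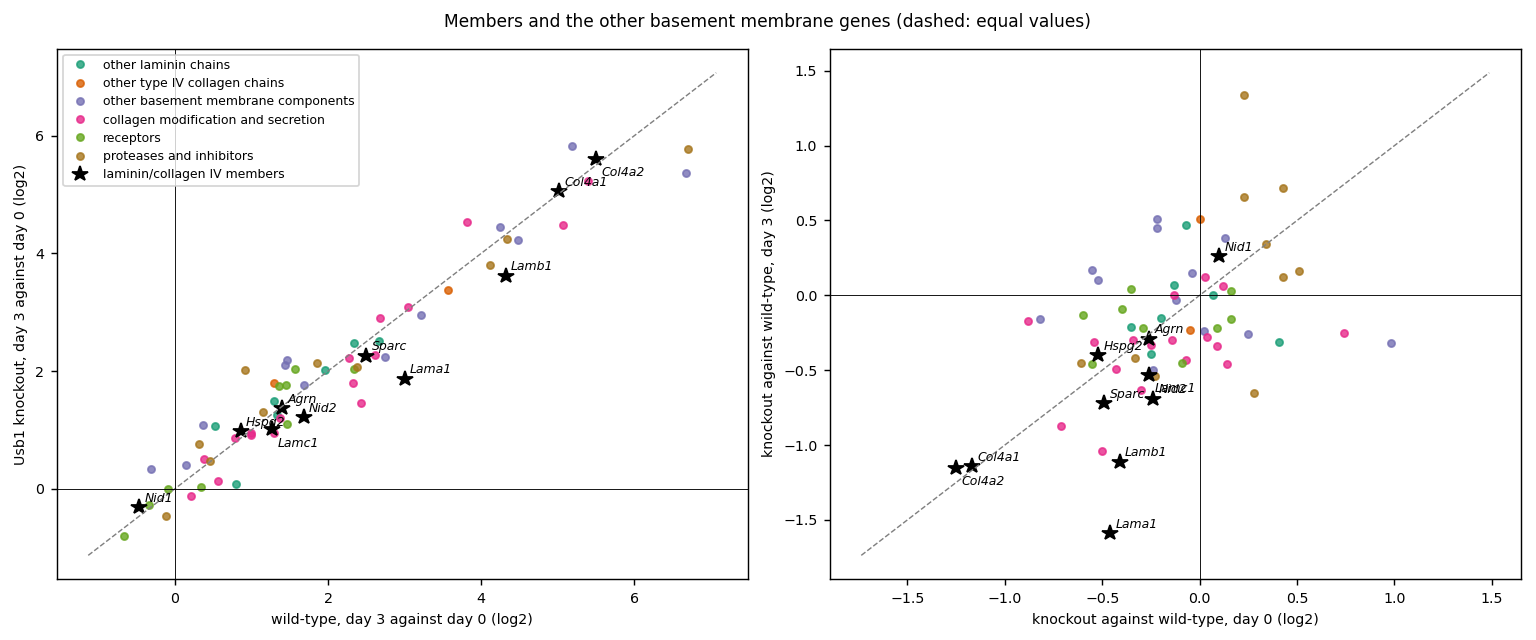
Log2 fold changes of the 10 genes (stars, named) and of the other basement membrane genes tested (circles, coloured by list). Left, day 3 against day 0 in wild-type (x) and knockout cells (y), right, knockout against wild-type at day 0 (x) and day 3 (y), dashed lines mark equal values. On the right *Lama1* and *Lamb1* lie below the dashed line, and *Col4a1* and *Col4a2* lie close to it.

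Markers of the endoderm cells known for these matrix genes were higher at day 3, as were most of the 10 genes. Fibroblast markers were higher too, with a median log2 fold change of 2.53 in wild-type and 3.46 in knockout cells. Of the 5 tested, 4 rose in each genotype and 1 fell in wild-type cells (limma, 25.8% and 21.9% of all genes called). At day 1 the 8 primitive endoderm markers were already higher on the whole. Their median log2 fold change was 1.26 in wild-type and 0.72 in knockout cells. It was 1.83 and 0.79 for the 6 parietal and 0.20 and 0.13 for the 6 visceral endoderm markers. For the 10 genes it was −0.17 and −0.29. The parietal marker *Krt19* was called lower at day 1 in wild-type (−1.06 ± 0.18, adjusted p = 0.000317) and knockout cells (−1.0 ± 0.16, adjusted p = 0.000272). *Sox7*, a primitive and parietal marker, was called higher in wild-type cells (1.39 ± 0.22, adjusted p = 0.000213). In knockout cells *Sox7* was lower without overlap (−0.51 ± 0.20) but not called. Of the 10, *Col4a1* and *Col4a2* were higher at day 1 without overlap in both genotypes. Lower without overlap were 5 in wild-type and 7 in knockout cells (beside 18.5% and 19.7% of all genes). The 8 primitive endoderm markers (*Gata6*, *Gata4*, *Sox17*, *Sox7*, *Pdgfra*, *Dab2*, *Foxa2* and *Hnf4a*) summed to 12.9 to 28.3 TPM in wild-type day 0 libraries, 84.1 to 85.9 TPM at day 1 and 572 to 622 TPM at day 3. In knockout libraries the sum was 10.3 to 11.8, 22.1 to 25.1 and 296 to 338 TPM. All 8 rose in wild-type and 7 of 8 in knockout cells at day 3 (limma, 25.8% and 21.9% of all genes called). Between the genotypes at day 3, 4 of 8 were called lower in knockout cells (1.29% of all genes called). They were *Gata4* (−1.73 ± 0.25, adjusted p = 0.000635), *Sox17* (−1.63 ± 0.15, adjusted p = 1.42e-05), *Hnf4a* (−1.34 ± 0.21, adjusted p = 0.00118) and *Dab2* (−1.13 ± 0.18, adjusted p = 0.00115). The others were not called, and *Pdgfra* was at 18.2 TPM in WT and 18.6 TPM in knockout cells. Earlier, 0 of 8 were called at day 0 and 4 of 8 were called lower at day 1 (3.05% and 2.22% of all genes called).

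The 6 parietal endoderm markers were *Thbd*, *Pth1r*, *Stra6*, *Krt19*, *Gata6* and *Sox7*. They summed to 877 to 946 TPM in WT and 447 to 526 TPM in knockout libraries at day 3. Most of each sum was 1 keratin gene, *Krt19*, with means of 701 TPM in WT and 376 TPM in knockout cells. At day 3 only *Pth1r*, 1 of 6, was called lower in knockout cells (1.29% of all genes called), and *Thbd* and *Stra6* overlapped between the genotypes. At day 0, 0 of 6 were called (3.05% of all genes called). At day 1, 3 of 6 were called lower (2.22% of all genes called). They were *Sox7* (−2.38 ± 0.20, adjusted p = 2.99e-06), *Stra6* (−1.77 ± 0.17, adjusted p = 1.09e-05) and *Gata6* (−1.71 ± 0.10, adjusted p = 1.32e-07). The 6 visceral endoderm markers summed to 212 to 226 and 73.9 to 84.7 TPM at day 3, with 4 of 6 called lower (1.29% of all genes called). At day 0 and day 1, 2 of 6 were called lower (3.05% and 2.22% of all genes called). Fibroblast markers (8 listed) summed to 45.0 to 54.3 TPM in WT and 72.0 to 81.4 TPM in knockout libraries at day 3, the other way round, and *Dcn*, *Lum* and *Postn* were at 0 in every day 0 and day 1 library. Endothelial markers (6 listed) summed to 42.0 to 46.0 and 40.3 to 47.5 TPM, with *Emcn* at 0 in every library. Most of this was *Eng*, at 34.2 TPM in WT and 30.6 TPM in knockout cells, which was higher at day 0 (72.9 and 55.6 TPM). Part of these lists overlaps, as *Gata6* and *Sox7* stand for primitive and parietal endoderm and *Hnf4a* for primitive and visceral endoderm. Of the embryonic stem cell markers, *Nanog* (1.90 ± 0.07, adjusted p = 4.27e-10) and *Esrrb* (1.76 ± 0.09, adjusted p = 5.14e-08) were called higher in knockout cells at day 3. *Klf4* went the other way, at 58.0 TPM in WT and 32.5 TPM in knockout cells with no overlap (−0.82 ± 0.07, adjusted p = 1.14e-05), but was under 2-fold. The part of a different number of endoderm or undifferentiated cells in the levels of the basement membrane genes was not tested.

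Across the 17 libraries, the genes most like the mean of the 10 (each centred and divided by its SD, on log2(TPM + 1)) among 11906 genes with a group mean of at least 10 TPM were *Egfr* (Pearson's r = 0.989), *Fbn1* (0.988), *Flna* (0.987), *Tgoln1* (0.986) and *mt-Nd5* (0.985). *Fbn1* encodes fibrillin, a matrix fibre, and *Flna* filamin, an actin cross-linker. The 10 genes themselves had r from 0.933 (*Col4a2*) to 0.991 (*Nid2*), apart from *Nid1* at 0.163. Each of the 10 is part of the mean it was compared with, so its r cannot be set beside that of other genes. These values describe libraries that share days and genotypes, and with Spearman's rho 0 of the 5 genes were among the first 5.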

How the data were processed

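RNA-seq was carried out on 17 libraries of wild-type and *Usb1* knockout R1/E cells (day 0, 1 and 3 of RA), which the study describes as biological replicates. The authors deposited TPM, calculated from gene length and read counts, and made NEBNext Ultra libraries for an Illumina NovaSeq platform. The submitters' processing notes name HISAT2 2.1.0, StringTie 1.3.6 and GRCm38.p6. The study names a count test, and voom on recovered reads was run here as an alternative.

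The 10 genes and all lists were chosen with earlier results of these data known. Values were analysed as log2(TPM + 1), not scaled again, and genes that reached 1 TPM in 2 or more libraries were fitted with limma 3.58.1 (R 4.3.3, trend, 6 group means). P-values were adjusted by Benjamini-Hochberg over the 21871 genes tested, and a call needed adjusted p under 0.05 and at least 2-fold. Fold changes on this scale understate those of low genes. The 10 genes were given with limma's SE and no p-value. Named genes were the 10, *Usb1*, the basement membrane lists (values for at most 3 genes per list and comparison, those with the largest change among those called), the marker lists and the 5 most alike genes. The differences between genotypes of *Serpinh1* and *Lama5* that missed the call were named after they were seen.

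Positions and exon lengths came from GENCODE M21 (54495 of 54532 identifiers). Reads were recovered as TPM times exon length over a step per library, and were whole within 0.01 for 95.91% to 96.64% of genes above 0. The strand setting of the counting is not given in the sources used here, so bases shared on opposite strands are uncertain. Counting error is small at the reads behind the 10 genes. The fit was tested on simulated data. Alternatives were another pseudocount (0.1), filter (none, or TPM of at least 5) and scaling, adjusted p alone, voom on recovered reads, the libraries of the comparison alone, a replicate block, and each library left out, with adjustment for exon length and the count of genes at least 2-fold without overlap added after seeing the data. Tables were made with pandas 2.3.3 and numpy 2.4.6 under Python 3.11.15, and plots with matplotlib 3.10.9. Splicing was not analysed here. Values of 1 gene of the basement membrane lists are not reported here, though the counts include it.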

Additional observations from a re-analysis of the deposited data

Results flagged for a closer look

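Among the other basement membrane genes, 3 that are reported here had a response to RA that differed between the genotypes in the test of the difference itself (limma). *Plat* had a difference of −1.29 ± 0.15 (adjusted p = 0.000799) at day 1, where it was at 5.20 TPM in WT and 2.08 TPM in knockout cells, and *Timp2* one of −1.07 ± 0.16 (adjusted p = 0.00377), at 39.1 and 15.5 TPM. With quantile normalization *Plat* was at −0.57 and *Timp2* at −0.95, and neither was called.

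*Tinagl1* had a difference of −1.30 ± 0.29 (adjusted p = 0.0177) at day 3, with mean levels of 138 TPM in WT and 111 TPM in knockout cells. Its wild-type day 0 libraries were at 0 and 0.881 TPM, and without wild-type day 0 replicate 1 (which also had the fewest genes with 1 read) the difference was −0.84 and no longer called.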

How the results depend on the processing

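The median fold changes of the 10 genes kept their direction under every alternative run. Single genes of the 10 with values between −0.17 and 0.20 took the other sign 29 times, 14 of them under another scaling, a fit on recovered reads, adjustment for exon length or the replicate block and 15 with 1 library left out. The day 3 response difference of *Col4a2* went from 0.10 to −0.14 with quantile normalization, and the knockout difference of *Nid2* at day 1 from −0.15 to 0.09 with an equal median. With an equal median of the libraries the medians were −0.38 (wild-type day 1), 1.88 (wild-type day 3), 1.31 (knockout day 3) and −0.42 (knockout against wild-type, day 1), and with adjustment for exon length 1.30 (knockout day 3) and −0.39 (knockout against wild-type, day 1). The number of the 10 genes at least 2-fold apart without overlap at day 1 was 0 in wild-type and 2 in knockout cells. It became 2 in wild-type cells with an equal median or adjustment for exon length, and 1 in knockout cells with an equal median or quantile normalization. At day 3 the number in knockout cells was 8. It became 6 with an equal median, 7 with voom on recovered reads or adjustment for exon length, and 9 with quantile normalization.

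For the other basement membrane genes, adjusted p under 0.05 alone called 33 genes at day 1 in each genotype, 12, 21 and 18 between the genotypes at day 0, 1 and 3, and 8 for the difference in response at day 3. Voom on recovered reads called 16 at day 1 in knockout cells, 5 and 9 between the genotypes at day 0 and day 1, and 3 for the response at day 3. A pseudocount of 0.1 called 16 at day 1 in knockout cells and 3 and 1 between the genotypes at day 0 and day 3. At day 0 between the genotypes, an equal median and adjustment for exon length each called 1. For the response difference, quantile normalization called 1 at day 1 and 3 at day 3, adjustment for exon length 2 at day 3, and no filter or only the libraries of the comparison 0 at day 3, where limma had 20 at an unadjusted p under 0.05. Spearman's rho shared 0 of the 5 most alike genes with Pearson's r. Apart from gene filters and smaller sets of libraries, the cause was not tested.

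With each library left out in turn, the number of the 10 genes at least 2-fold apart at day 1 was 0 to 2 in wild-type cells (1 without either wild-type day 0 library, 2 without wild-type day 1 replicate 1) and 1 to 2 in knockout cells (1 without knockout day 0 replicate 2 or knockout day 1 replicate 1). Calls between the genotypes numbered 0 to 4 at day 0 (4 without wild-type day 0 replicate 2, 1 without knockout day 0 replicate 2), 3 to 5 at day 1 (3 without wild-type day 1 replicate 1) and 1 to 2 at day 3 (1 without knockout day 3 replicate 1). The response differences gave 2 to 9 calls at day 1 and 1 to 3 at day 3, the highest without wild-type day 0 replicate 2, which leaves that group with only the library poor in low counts.

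Samples with the same replicate number did not deviate together (mean correlation −0.00517 over 40 pairs, −0.13 to 0.124), so the numbers were not taken as pairs. A replicate block gave 40 rather than 39 of the other basement membrane genes at day 3 in wild-type cells and 2 rather than 3 for the response at day 1, and moved no other count of calls by over 1.5 times.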
